A study of Mus musculus with 26 samples.

Results

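Proteasome genes were followed through the development of mouse thymic natural killer T (NKT) cells, T cells that recognise lipids presented by CD1d. The members are all genes whose deposited symbol starts with Psma, Psmb, Psmc, Psmd, Psme, Psmf or Psmg and goes on with a number. The rule used names and not measured values, and it found 49 genes among 23168 symbols. Of these, 48 reached 1 FPKM (fragments per kilobase of transcript, scaled to the mapped fragments of the library) in at least 4 libraries and were tested among 11663 genes. The exception was Psma8, an alpha subunit known from testis, which was listed between 0 and 0.881 FPKM. Psmc3ip also meets the rule by name but is no proteasome subunit: it encodes a cofactor of the recombinases of meiosis. Its values are given apart, but it is 1 of the 48 and is included in all counts and medians of members.

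The proteasome degrades proteins that carry ubiquitin. Its 20S core is a barrel of alpha rings outside and beta rings inside, and of the standard beta subunits only those of Psmb5, Psmb6 and Psmb7 cut, with chymotrypsin-like, caspase-like and trypsin-like activity in that order. In cells exposed to interferon gamma, and at steady state in lymphocytes, Psmb8, Psmb9 and Psmb10 encode subunits that take the places of Psmb5, Psmb6 and Psmb7 and form the immunoproteasome, which supplies peptides to MHC class I. The 19S cap, made of Psmc ATPases and Psmd subunits, binds and unfolds the substrate, while the 11S cap made of Psme1 and Psme2 opens the core without ubiquitin.

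The study compared 26 libraries of total RNA from sorted thymocytes of C57BL/6 mice aged 6 to 8 weeks. DN1eP-NKT (4 libraries) are cells positive for the Vα14Jα18 receptor that were grown from DN1eP for 10 days on an OP9/Dll-1 stromal layer with 5 ng/ml IL-2 and 5 ng/ml IL-7. Thymic NKT cells were sorted with CD1d dimers as NKT-1 (negative for CD44 and NK1.1, 5 libraries), NKT-2 (CD44 positive and NK1.1 negative, 7 libraries) and NKT-3 (positive for both, 6 libraries). DN1eP (4 libraries) are lineage negative thymocytes sorted as CD44 positive, CD25 negative and low in CD24, with CD5, CD27 and CXCR3 and without Ly108, and they lack the receptor at the surface. The labels name no mutation or transgene, and DN1eP-NKT differs from every other group in having passed through culture.

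The libraries fall into 2 sets of 13 that do not follow the stage, and groups were compared inside a set. The DN1eP-NKT set holds the 4 DN1eP-NKT, 2 NKT-1, 4 NKT-2 and 3 NKT-3 libraries, and the median FPKM of its genes at 1 FPKM or more was 13 to 13.8 per library. The DN1eP set holds 3 NKT-1, 3 NKT-2, 3 NKT-3 and the 4 DN1eP libraries, with medians of 7.58 to 9.81. Per the labels, 1 of 2 library kits was used, without naming the libraries made with each. Within the DN1eP set, NKT-2 libraries 6 and 7 and NKT-3 libraries 5 and 6 had Mir682 as their highest entry, at 68976 to 106953 FPKM. Of these, NKT-2 library 6 and NKT-3 library 5 carried B cell markers summing to 88.6 and 30.7 FPKM, and erythroid markers summing to 199 and 827 FPKM. The files give no read counts, so depth is unknown, and the deposited interval around a gene of 20 to 100 FPKM had a median half-width of 5.53% to 23.8% per library. Klrb1c and Cd44 followed the gates of the thymic stages. Klrb1c, which encodes NK1.1, was at 440 to 563 FPKM in the 6 NKT-3 libraries. It was at 4.2 to 48.6 FPKM in the NKT-1 and NKT-2 libraries. Cd44 was at 2.22 to 4.98 FPKM in NKT-1, against 27.5 to 145 FPKM in the later stages. The gate genes of DN1eP were mixed. Cd27 was at 169 to 241 FPKM there and Cxcr3 at 123 to 423 FPKM. Cd5 was at 12.3 to 23.4 FPKM, below the 32.7 to 74.3 FPKM of the thymic libraries of the set. Cd24a was at 0.937 to 15.9 FPKM in DN1eP, against 0 to 6.09 FPKM in those thymic libraries. Klrb1c was at 170 to 495 FPKM in DN1eP. Cd3e was at 1117 to 1538 FPKM there, against 806 to 1431 FPKM in the thymic libraries of the DN1eP set. Zbtb16, which encodes the NKT factor PLZF, was at 4.51 to 6.9 FPKM in DN1eP-NKT, below the 12.8 to 113 FPKM of the thymic libraries of the DN1eP-NKT set. Nothing in the labels ties a replicate to its own animal or sort, and p-values then measure only the spread between these samples, which may be technical. In bulk RNA, fewer cells of a type and less RNA per cell cannot be told apart.

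The upstream sequences of the catalytic genes are shown for 3 of the 6, because the comparisons below set these genes against each other. They are the 250 bases before the annotated start, from RefSeq on GRCm38.p6, with 1 match to a searched pattern in capitals in each.
Psmb9, chr17:34187331-34187580, minus strand: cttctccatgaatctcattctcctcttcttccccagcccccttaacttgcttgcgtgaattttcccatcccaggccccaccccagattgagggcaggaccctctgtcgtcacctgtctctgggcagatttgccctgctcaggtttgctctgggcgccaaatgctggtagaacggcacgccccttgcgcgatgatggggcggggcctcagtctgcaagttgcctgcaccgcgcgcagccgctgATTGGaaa
Psmb5, chr14:54617996-54618245, minus strand: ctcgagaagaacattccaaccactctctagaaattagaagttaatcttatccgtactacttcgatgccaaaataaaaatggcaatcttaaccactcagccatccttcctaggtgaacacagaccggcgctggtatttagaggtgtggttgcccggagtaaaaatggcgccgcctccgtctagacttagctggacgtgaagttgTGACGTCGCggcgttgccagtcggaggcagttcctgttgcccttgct
Psmb6, chr11:70525107-70525356, plus strand: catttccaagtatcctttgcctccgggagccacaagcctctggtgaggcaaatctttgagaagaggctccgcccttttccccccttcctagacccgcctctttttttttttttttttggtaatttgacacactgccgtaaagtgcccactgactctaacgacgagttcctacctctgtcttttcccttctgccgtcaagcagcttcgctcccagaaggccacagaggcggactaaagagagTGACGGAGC

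Psmb8 and Psmb9 lie close together on chromosome 17, in the MHC class II region. The capitals in Psmb9 are CCAAT read on the other strand, the letters of the NF-Y box. Those in Psmb5 and Psmb6 match TGACNNNGC, the core of the element bound by NFE2L1 and NFE2L2, which raise proteasome genes when degradation is blocked. Both strands were searched in windows of 300 bases, and a window existed for 41 of the 49 genes, not for Psmb7. TGACNNNGC was in 6 of the 41 (14.6%), against 12.4% of all 32851 windows, and CCAAT in 15 of the 41 (36.6%), against 37.4%. A match describes letters and is not evidence of binding.

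Proteasome genes as a group were lower in NKT-3 cells than in NKT-2 cells. In the DN1eP-NKT set, 26 of the 48 members were lower in NKT-3 and none was higher at an adjusted p under 0.05 (limma, Benjamini-Hochberg over all tested genes), where 16.4% of all 11663 genes were lower and 11.6% were higher. The members' median log2 difference was -0.59, against -0.03 for all genes. All fold changes are differences of log2(FPKM + 1), a scale that understates changes of low genes, and a gene is called higher or lower where it passed that threshold. All 7 tested alpha ring genes were among the 26, with 7 of 11 non-ATPase 19S genes, 3 of 6 ATPase genes, 2 of 4 noncatalytic beta genes and 3 of 7 assembly chaperones. The rest were Psmb5, Psmb7, Psme2 and Psmc3ip, which is no proteasome gene. The count was 17 without NKT-3 library 3, when calls over all genes, in either direction, numbered 2375, against 3269 with every library. In the same contrast all 10 proliferation markers were lower, and their sum was 259 to 304 FPKM in NKT-3 and 975 to 1121 FPKM in NKT-2. The part of cell division in the difference was not tested.

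**Figure D1:**
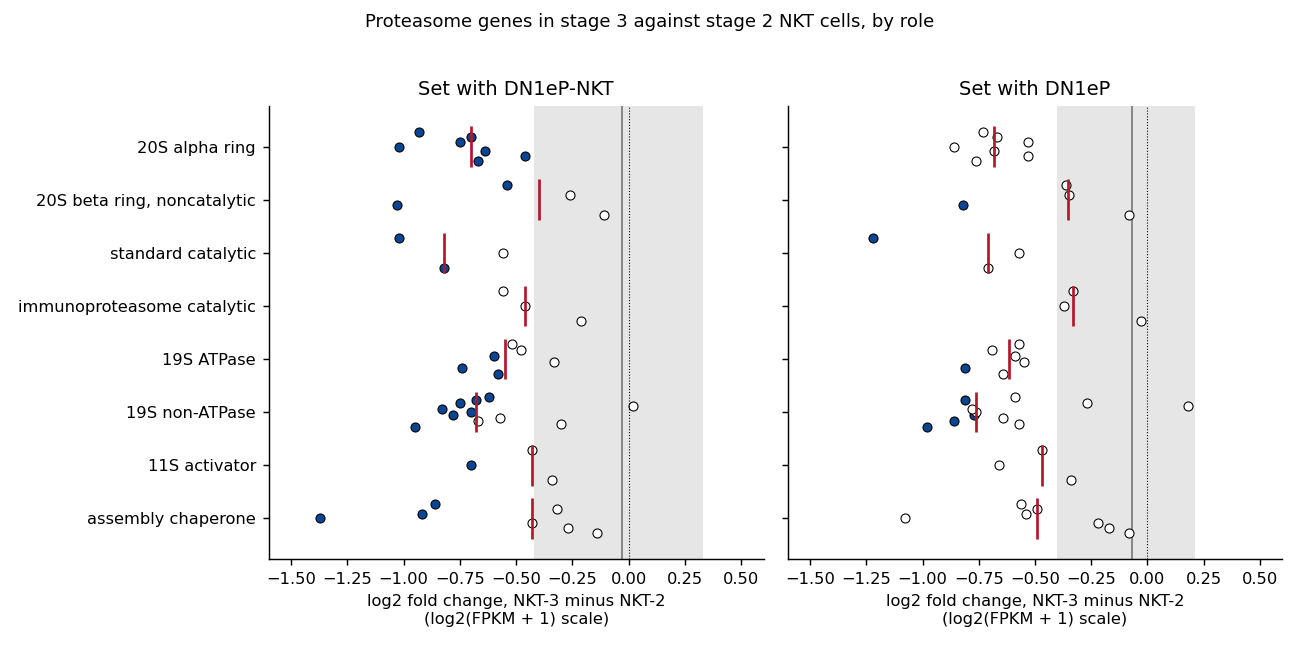
Difference in log2(FPKM + 1), NKT-3 minus NKT-2, of each tested proteasome gene in the roles with 3 or more genes, in both library sets. Filled points passed the test as lower, red lines are role medians, and the grey line and band are the median and quartiles of all 11663 tested genes. Nearly all points lie left of the grey line, and the alpha ring genes of the DN1eP-NKT set are all filled.

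Of the standard catalytic genes, Psmb7 and Psmb5 fell. Psmb7 (mm9 chr2:38443566-38499426) had 92.7, 106 and 90.2 FPKM in the NKT-3 libraries, against 166, 192, 224 and 205 FPKM in the NKT-2 libraries. Every NKT-3 library was below every NKT-2 library, and the log2 difference was -1.02 ± 0.19 (SE, adjusted p = 0.000846). Psmb5 (mm9 chr14:55232957-55236832) had 68.3, 71.4 and 89.3 FPKM in NKT-3, against 130, 147, 124 and 138 FPKM in NKT-2, again without overlap (-0.82 ± 0.17, adjusted p = 0.00263). Psmb6 (mm9 chr11:70338859-70341360) had 99.3, 82.3 and 89.2 FPKM in NKT-3, against 96.7, 153, 136 and 156 FPKM in NKT-2. NKT-2 library 1 lay among the NKT-3 values, and the difference did not pass the test (-0.56 ± 0.31, adjusted p = 0.198).

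None of the 3 immunoproteasome catalytic genes passed the test in that contrast. Psmb8 (mm9 chr17:34335140-34338399) had 277, 230 and 224 FPKM in NKT-3, against 275, 367, 336 and 370 FPKM in NKT-2. Psmb9 (mm9 chr17:34319044-34324275) had 125, 110 and 108 FPKM in NKT-3, against 145, 196, 145 and 197 FPKM in NKT-2. The groups overlapped in Psmb8, through NKT-3 library 1 and NKT-2 library 1, and were apart in Psmb9, with log2 differences of -0.46 ± 0.19 (adjusted p = 0.0881) and -0.56 ± 0.22 (adjusted p = 0.0684). Psmb10, on chromosome 8, had 99.4, 117 and 94.3 FPKM in NKT-3, against 104, 125, 119 and 132 FPKM in NKT-2. These overlapped (-0.21 ± 0.15, adjusted p = 0.321). With a term for the width class of each library's deposited interval, chosen after the data were seen, 39 members were lower, against 22.8% of all genes, and all 6 catalytic genes were among them.

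**Figure D2:**
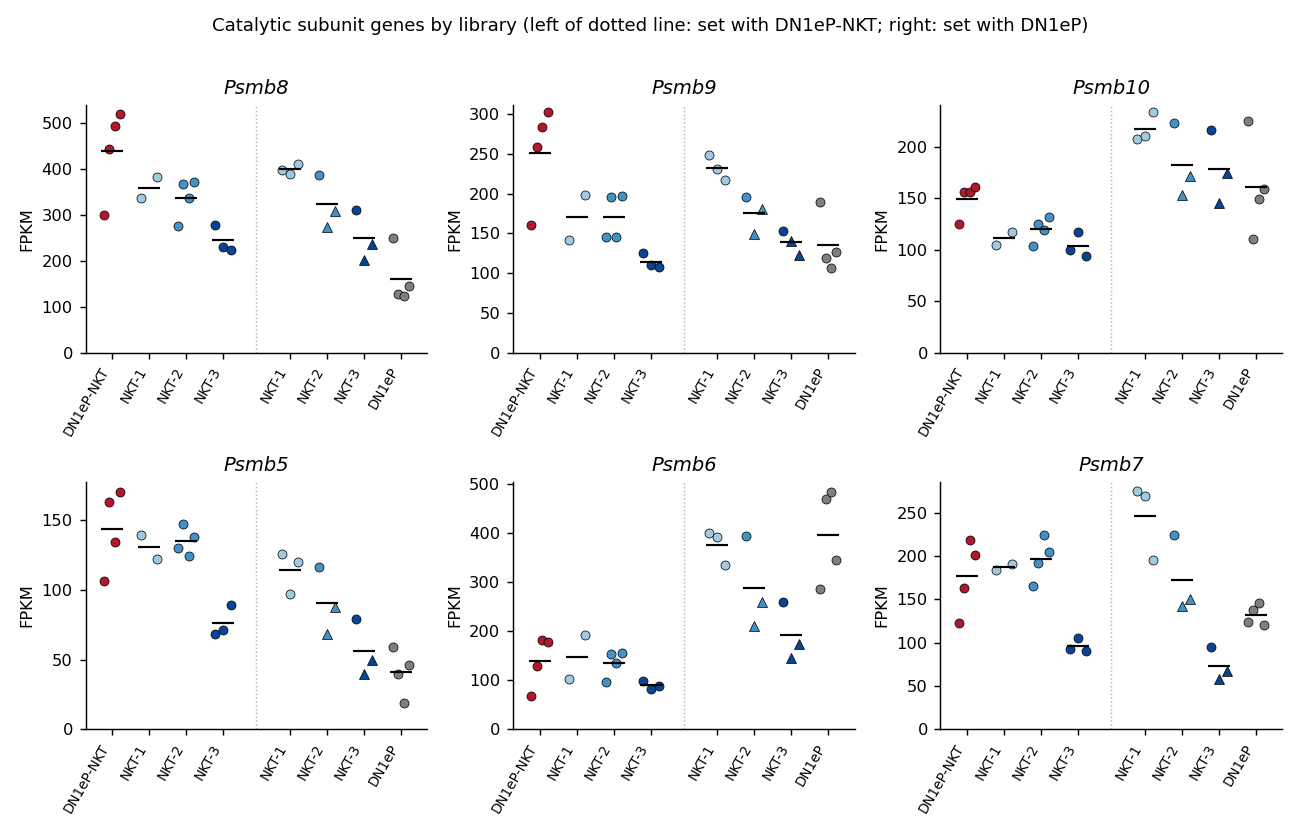
FPKM of the 6 catalytic genes in each of the 26 libraries, by group and library set. Each point is 1 library, triangles are the 4 libraries topped by Mir682, and the horizontal line is the group mean. In the DN1eP-NKT set the NKT-3 points of Psmb5 and Psmb7 lie below all NKT-2 points, while those of Psmb10 overlap them.

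Other parts of the core and the cap moved with Psmb5 and Psmb7. Psmb2, a beta subunit without catalytic activity, had 105, 73 and 87.5 FPKM in NKT-3, against 151, 196, 177 and 201 FPKM in NKT-2 (-1.03 ± 0.19, adjusted p = 0.000798). Psma4, in the alpha ring, had 125, 94 and 113 FPKM in NKT-3, against 168, 231, 277 and 233 FPKM in NKT-2 (-1.02 ± 0.21, adjusted p = 0.00217). Psmd1, a scaffold subunit of the 19S base, had 36.4, 30.8 and 39.3 FPKM in NKT-3, against 55.2, 86, 74 and 64.7 FPKM in NKT-2 (-0.95 ± 0.18, adjusted p = 0.00108). In all 3 genes the NKT-3 libraries lay below the NKT-2 libraries. These genes were named for their low adjusted p, so the lack of overlap adds nothing to the tests. Psma5 fell by 0.75, Psma6 by 0.70, Psmd7 by 0.68 and Psmd14, the deubiquitinase of the cap, by 0.78 on the log2 scale (adjusted p of 0.00182, 0.00494, 0.00241 and 0.00254). The ATPase genes Psmc2, Psmc4 and Psmc1 fell by 0.74, 0.60 and 0.58, and the noncatalytic Psmb4 by 0.54, Psmc1 and Psmb4 losing the call without NKT-3 library 3. The summed level of the 7 alpha ring genes was 709 to 735 FPKM in NKT-3 and 1086 to 1403 FPKM in NKT-2, with no overlap.

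Psmg1 and Psmg2 encode the pair of chaperones on which the alpha ring is built. Psmg1 had 6.41, 16.7 and 5.76 FPKM in NKT-3, against 26.1, 23.8, 35.2 and 14.4 FPKM in NKT-2. NKT-3 library 2 lay above the lowest NKT-2 library, and the log2 difference was -1.37 ± 0.33 (adjusted p = 0.00655). Psmg2 had 23.4, 21.6 and 27.2 FPKM in NKT-3, against 46.6, 39.5, 52.9 and 47 FPKM in NKT-2, which do not overlap (-0.92 ± 0.19, adjusted p = 0.00174). Psmg4 (-0.86, adjusted p = 0.0393) and Psmc4 (-0.60, adjusted p = 0.0443) each lost the call when any of 6 single libraries was left out.

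The caps other than 19S showed a mixed picture. Psme2 (mm9 chr14:56206277-56209938) had 236, 261 and 232 FPKM in NKT-3, against 369, 383, 472 and 359 FPKM in NKT-2, and fell without overlap (-0.70 ± 0.15, adjusted p = 0.00284). Psme1, which encodes the partner subunit in the 11S ring, had 272, 303 and 268 FPKM in NKT-3, against 383, 336, 358 and 345 FPKM in NKT-2. These did not overlap either, but the difference missed the threshold (-0.34 ± 0.13, adjusted p = 0.0628). Psme4, which encodes the large activator PA200, and Psmf1, which encodes the inhibitor PI31, were near 0 on the log2 scale, at 0.01 and 0.08. So was Psmd4, a ubiquitin receptor of the cap, at 0.02, with 90, 90.8 and 82.3 FPKM in NKT-3 and 89, 74.9, 84.6 and 98.9 FPKM in NKT-2. Psmc3ip, the recombination gene, had 2.17, 0.892 and 1.95 FPKM in NKT-3, against 5.51, 12.1, 9.42 and 12.5 FPKM in NKT-2 (-2.01 ± 0.31, adjusted p = 0.000171).

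In the DN1eP set, 7 of the 48 members were lower in NKT-3 than in NKT-2 and none was higher, against 4.75% of all genes lower and 2.37% higher. The members' median log2 difference was -0.57, against -0.07 for all genes. The 7 were Psmb7, Psmb2, Psmc2, Psmd1, Psmd7, Psmd12 and Psmd14. Psmb7 had 94.9, 57.7 and 66.9 FPKM in NKT-3, against 224, 142 and 150 FPKM in NKT-2, without overlap (-1.22 ± 0.24, adjusted p = 0.00465). The values of Psmb5 were 79.3, 39.8 and 49.8 FPKM in NKT-3 and 116, 68.3 and 87.9 FPKM in NKT-2, which overlap (-0.71 ± 0.35, adjusted p = 0.3). Psmb6 had 259, 145 and 175 FPKM in NKT-3, against 394, 210 and 259 FPKM in NKT-2 (-0.57 ± 0.28, adjusted p = 0.311). In each of these 3 genes the library without Mir682 on top (NKT-3 library 4 and NKT-2 library 5) was the highest of its group.

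The immunoproteasome genes did not pass the test in the DN1eP set either. Psmb8 had 310, 202 and 237 FPKM in NKT-3, against 385, 274 and 307 FPKM in NKT-2 (-0.37 ± 0.27, adjusted p = 0.53). Psmb9 had 153, 140 and 123 FPKM in NKT-3, against 196, 149 and 181 FPKM in NKT-2 (-0.33 ± 0.22, adjusted p = 0.483). Psmb10 had 216, 145 and 175 FPKM in NKT-3, against 223, 153 and 172 FPKM in NKT-2 (-0.03 ± 0.25, adjusted p = 0.991). In all 3 genes the groups overlapped. As to the 11S genes, Psme1 (-0.34 ± 0.25) and Psme2 (-0.66 ± 0.47) had adjusted p of 0.537 and 0.531. Psme2 was at 742 FPKM in NKT-3 library 4 and 1242 FPKM in NKT-2 library 5, against 240 and 250 FPKM in the NKT-3 libraries and 321 and 437 FPKM in the NKT-2 libraries topped by Mir682.

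The count in the DN1eP set moved with the 4 libraries topped by Mir682. It was 18 with a term for them, against 5.74% of all genes, and 0 without them, where 1 library each of NKT-3 and NKT-2 was left and 31 of all genes were called. It was 2 without NKT-2 library 5, 10 without NKT-2 library 6, 2 without NKT-2 library 7, 3 without NKT-3 library 5 and 2 without NKT-3 library 6. Calls over all 11663 genes, in either direction, moved too: they were 492, 811, 562, 503 and 471 in that order, against 830 with every library. Psmb7 and Psmd1 passed whichever library was left out. With upper-quartile scaling 3 members were lower and none was higher, and 47.8% of all calls were higher, against 33.3% without it. Of the 10 proliferation markers, 8 were lower in NKT-3, with sums of 199 to 294 FPKM in NKT-3 and 589 to 1052 FPKM in NKT-2. Across the 2 sets, which share no library, 44 of the 48 members (91.7%) had a lower estimate in NKT-3 in both, against 43.3% of all genes, and 6 of the 48 were called lower in both, against 480 of all 11663 genes. Across the 48 members the log2 differences of the sets correlated at 0.88, against 0.747 across all genes. Genes are not independent replicates. A test of the difference between the sets in 1 limma fit called none of the 48, where 0.326% of all genes were called. The same test called none for NKT-3 minus NKT-1 (0.317% of all genes) and for NKT-2 minus NKT-1 (0% of all genes).

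Against NKT-1, members were again called only as lower in NKT-3, with a similar count in the DN1eP-NKT set and a higher one in the DN1eP set than against NKT-2. In the DN1eP-NKT set, 22 members were lower in NKT-3 and none was higher, against 17.7% of all genes lower and 10.3% higher, with a median log2 difference of -0.60 (-0.08 for all genes). Psmd7 fell by 1.02 (adjusted p = 0.0004) and Psmb7 by 0.96 (adjusted p = 0.00475), and Psmb8, Psmb9 and Psmb10 differed by -0.56, -0.55 and -0.11 (adjusted p of 0.0845, 0.132 and 0.7). Psmb5 fell by 0.77 (adjusted p = 0.0119), Psmb6 differed by -0.64 (adjusted p = 0.223), Psme2 fell by 0.64 (adjusted p = 0.0148) and Psme1 differed by -0.42 (adjusted p = 0.0557). The count was 10 without NKT-1 library 1, when Psmb5 and Psme2 were lost, and 14 without NKT-1 library 2 (2224 and 2163 of all genes called in either direction, against 3261), and the single NKT-1 library then left is assumed to vary like the other groups. Psme2 also lost the call without NKT-3 library 3. The count was 39 with the width term, against 24.1% of all genes. In the DN1eP set, 31 members were lower in NKT-3 and none was higher, against 14.7% of all genes lower and 3.76% higher, with a median of -0.98 (-0.22 for all genes). Psmb7 fell by 1.75 (adjusted p = 0.000148). Psmb5 (-1.06 ± 0.35, adjusted p = 0.0465), Psmb6 (mean of 193 FPKM in NKT-3, against 376 FPKM in NKT-1, adjusted p = 0.0235) and Psmb9 (-0.74 ± 0.22, adjusted p = 0.0285) were called there too, each losing the call without NKT-1 library 3 or 4 or NKT-3 library 5 or 6, and Psmb5 and Psmb9 also without NKT-1 library 5. Psme1 (-0.96 ± 0.25, adjusted p = 0.0136) and Psme2 (-1.82 ± 0.47, adjusted p = 0.0145) lost it without NKT-1 library 3 or NKT-3 library 5 or 6. Psmb8 (-0.69, adjusted p = 0.0848) and Psmb10 (-0.30, adjusted p = 0.48) were not. With upper-quartile scaling, which moves the median of all genes to 0.00, 16 members were lower and none was higher, and 46% of all calls were higher, against 20.3% without it. The 31 became 13 with a term for the libraries topped by Mir682 (5.53% of all genes), 2 without them, and 20 and 18 without NKT-3 library 5 or 6. Without them 299 of all genes were called in either direction, and 1424 and 1239 without NKT-3 library 5 or 6, against 2155 with every library. No NKT-1 library is of that kind, so the stage and the library kind cannot be told apart for the other calls.

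No member was called between NKT-2 and NKT-1 by limma in either set, where 0.223% and 0.129% of all genes were called. At an unadjusted p under 0.05 there were 0 of 48 in the DN1eP-NKT set and 10 of 48 in the DN1eP set, and the lowest adjusted p were 0.808 and 0.445. Psmb8 in the DN1eP-NKT set had 275, 367, 336 and 370 FPKM in NKT-2, against 335 and 382 FPKM in NKT-1. In the DN1eP set it had 385, 274 and 307 FPKM in NKT-2, against 397, 388 and 409 FPKM in NKT-1. The NKT-2 and NKT-1 values overlap in the first set, and the NKT-2 values lie below those of NKT-1 in the second, where both lower NKT-2 libraries are topped by Mir682. All 48 members had a lower estimate in NKT-2 in that set, with a median of -0.38, against -0.16 for all genes, whose quartiles were -0.36 and 0.04. In both sets the estimate was lower for 26 of the 48 (54.2%), against 44.7% of all genes. The members' median in the DN1eP set was -0.10 with a term for the libraries topped by Mir682 (-0.05 for all genes). It was -0.10 after quantile normalization (-0.01) and -0.22 with upper-quartile scaling (-0.03).

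The share of the immunoproteasome subunit in each pair of exchangeable subunits was taken from FPKM within a library. NKT-3 was compared with NKT-1 and NKT-2 together, DN1eP-NKT with the 9 thymic libraries of its set, and the 9 thymic libraries with DN1eP, giving 12 exact two-sided permutation tests of the log2 ratio, which were added after the values were seen. Psmb10 made up 51.1% to 52.5% of Psmb10 plus Psmb7 in NKT-3, against 34.6% to 39.5% in the earlier stages of the DN1eP-NKT set. In the DN1eP set its share was 69.5% to 72.4% in NKT-3, against 43.1% to 54.5% in the earlier stages. Neither set had an overlap, and both log2 ratio differences (0.83 and 1.34) had the smallest p that 3 against 6 libraries allow in an exact permutation test, 0.0238 (0.0714 after adjustment over the 12). The share of Psmb8 in Psmb8 plus Psmb5 was 71.5% to 80.2% in NKT-3, against 67.9% to 75.8% in the earlier stages of the DN1eP-NKT set, and 79.6% to 83.6%, against 75.9% to 80%, in the DN1eP set. These overlapped (exact permutation p of 0.143 and 0.0714, adjusted 0.286 and 0.171). The share of Psmb9 in Psmb9 plus Psmb6 was 54.8% to 57.3% in NKT-3, against 50.7% to 59.9%, and 37.1% to 49.1%, against 33.2% to 41.5%, and overlapped too (exact permutation p of 0.833 and 0.286).

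**Figure D3:**
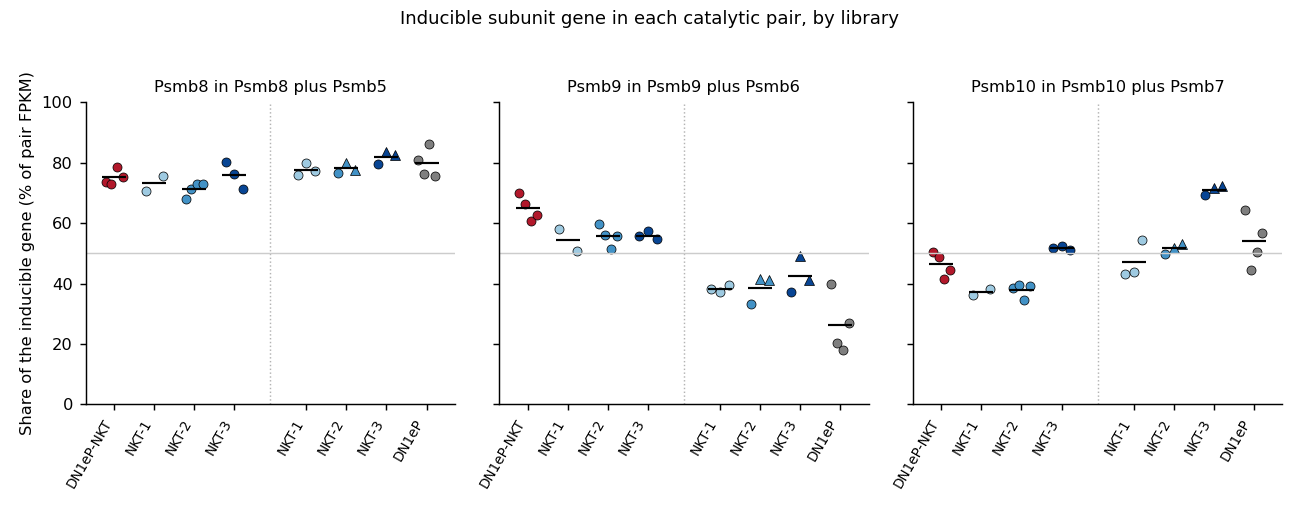
Percent of the immunoproteasome subunit in each pair, by FPKM, per library, group and set. Points are libraries, triangles are those topped by Mir682, and horizontal lines are group means. The Psmb10 share of NKT-3 lies above NKT-1 and NKT-2 in both sets, and the Psmb9 share of DN1eP-NKT lies above all thymic libraries of its set.

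DN1eP-NKT cells had more of the immunoproteasome catalytic transcripts than the mean of the thymic stages. All 3 of these genes were higher, while none of Psmb5, Psmb6 and Psmb7 was called. Tested directly as ratios within pairs, only Psmb9 rose against its standard partner, as given below. In all, 5 of the 48 members were higher and none was lower, against 15.9% of all genes higher and 11.5% lower, so the share of members called was below the background. The members' median log2 difference was 0.14, against 0.01 for all genes. The other 2 were Psma5 (0.40 ± 0.12, adjusted p = 0.0239) and Psmc3ip (0.77 ± 0.24, adjusted p = 0.0274). Psma5 lost the call without DN1eP-NKT library 2, 3 or 4 or NKT-1 library 2, and Psmc3ip without DN1eP-NKT library 2 or 3 or NKT-1 library 1.

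Psmb9 had 161, 259, 284 and 302 FPKM in DN1eP-NKT, against 142 and 198 FPKM in NKT-1, 145 to 197 FPKM in NKT-2 and 108 to 125 FPKM in NKT-3. Libraries 2 to 4 of DN1eP-NKT lay above all 9 thymic libraries and library 1 lay among them (0.72 ± 0.17, adjusted p = 0.00521). Psmb8 had 298, 443, 493 and 519 FPKM in DN1eP-NKT, against 335 and 382 FPKM in NKT-1, 275 to 370 FPKM in NKT-2 and 224 to 277 FPKM in NKT-3, with the same order of libraries (0.48 ± 0.15, adjusted p = 0.0296). Psmb10 had 125, 156, 156 and 161 FPKM in DN1eP-NKT, against 105 and 117 FPKM in NKT-1, 104 to 132 FPKM in NKT-2 and 94.3 to 117 FPKM in NKT-3 (0.42 ± 0.12, adjusted p = 0.014). The mean levels of Psmb8, Psmb9 and Psmb10 were 438, 251 and 150 FPKM in DN1eP-NKT, against 313, 152 and 112 FPKM over the thymic stages. Psmb8 lost the call without DN1eP-NKT library 2, 3 or 4, NKT-1 library 1 or NKT-3 library 2 or 3, and Psmb10 lost it without DN1eP-NKT library 2 or 4.

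Psmb5 had 106, 163, 134 and 170 FPKM in DN1eP-NKT, against 68.3 to 147 FPKM over the thymic libraries (0.35 ± 0.14, adjusted p = 0.073). Psmb6 had 68.7, 130, 183 and 179 FPKM (0.14 ± 0.24, adjusted p = 0.733) and Psmb7 had 123, 163, 219 and 201 FPKM in DN1eP-NKT (0.18 ± 0.15, adjusted p = 0.416). For all 3 the thymic libraries of the set overlapped these values. Psme2 (0.33 ± 0.12, adjusted p = 0.0504) and Psme1 (0.15 ± 0.10, adjusted p = 0.314) were not called. Psmb9 made up 60.8% to 70.1% of Psmb9 plus Psmb6 in DN1eP-NKT, against 50.7% to 59.9% in the 9 thymic libraries. These did not overlap, and the exact permutation p of 0.0028 is the smallest that 4 against 9 libraries allow (0.0336 after adjustment over the 12 ratios). The shares of Psmb8 (73.1% to 78.7%, against 67.9% to 80.2%) and Psmb10 (41.7% to 50.4%, against 34.6% to 52.5%) overlapped (exact permutation p of 0.386 and 0.305, adjusted 0.515 and 0.457).

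Other values moved with the same contrast. Stroma markers summed to 72.7 to 381 FPKM in DN1eP-NKT, against 0.0762 to 0.78 FPKM in the thymic libraries of the set. Of the 8 stroma genes, 6 could be tested and all 6 were higher. Col1a1, Col1a2, Fn1 and Cxcl12 reached 1 FPKM only in DN1eP-NKT libraries, and Sparc only there and in DN1eP library 1. They could thus be tested only through the group where they were high, and their direction adds nothing to the sums. B cell markers summed to 15.8 to 23 FPKM, against at most 3.74 FPKM. Of the proliferation markers, 8 of 10 were higher in DN1eP-NKT, with sums of 959 to 1455 FPKM, against 1139 to 1353 FPKM in NKT-1, 975 to 1121 FPKM in NKT-2 and 259 to 304 FPKM in NKT-3. Their part in the proteasome values was not tested. The number of members called was 15 without DN1eP-NKT library 1, 1 without library 2, 2 without library 3 or 4, and 3 without NKT-1 library 1. Calls over all genes, in either direction, were 3336, 2600, 2699, 2709 and 2959 in that order, against 3200 with every library. The members called were 12 with the term for interval width, against 20% of all genes. Of all calls in this contrast 58.1% were higher, against 47.1% after quantile normalization, when 7 members were higher and none was lower.

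Between thymic NKT cells and DN1eP, members moved in both directions. Of the 48, 13 were higher in the mean of the thymic stages and 4 were lower, against 11.1% of all genes higher and 17.4% lower, and the members' median log2 difference was 0.21, against -0.05. Psmb8 had 388 to 409 FPKM in NKT-1, 274 to 385 FPKM in NKT-2 and 202 to 310 FPKM in NKT-3, against 250, 127, 122 and 144 FPKM in DN1eP. Of the DN1eP libraries only library 1 reached the thymic values (1.03 ± 0.20, adjusted p = 0.00163). Psmb5 had 97.1 to 126 FPKM in NKT-1, 68.3 to 116 FPKM in NKT-2 and 39.8 to 79.3 FPKM in NKT-3, against 58.7, 39.6, 19.2 and 46.2 FPKM in DN1eP (1.09 ± 0.26, adjusted p = 0.00608). The NKT-3 values overlap those of DN1eP and the NKT-1 values do not.

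Psmb9 (0.42 ± 0.16, adjusted p = 0.0657), Psmb10 (0.29 ± 0.19, adjusted p = 0.266), Psmb7 (0.12 ± 0.17, adjusted p = 0.652) and Psmb6 (-0.52 ± 0.21, adjusted p = 0.0752) were not called. Psmb6 had 145 to 401 FPKM in the thymic stages, against 285, 470, 484 and 346 FPKM in DN1eP. The share of Psmb9 in Psmb9 plus Psmb6 was 33.2% to 49.1% in the thymic stages, against 39.9%, 20.3%, 18% and 26.9% in DN1eP, with library 1 inside the thymic range (exact permutation p = 0.0168, 0.0714 after adjustment). Psmd7 rose by 1.08 ± 0.17 (adjusted p = 0.000488), and of the chaperones Psmg1 (1.73 ± 0.43, adjusted p = 0.00918), Psmg4 (1.17 ± 0.24, adjusted p = 0.00271) and Psmg2 (0.95 ± 0.17, adjusted p = 0.00101) rose. Psmg1 was at 3.6 to 24.1 FPKM in the thymic libraries, against 6.98, 5.83 and 3.94 FPKM in DN1eP libraries 1, 2 and 4, and it was listed at 0 in library 3. Psmd6, Psmd1, Psmd2, Psmb4, Psmb2, Psma1 and Psma6 rose by 0.48 to 0.79, and Psma1 lost the call without DN1eP library 3 or 4, Psma6 without DN1eP library 2 and Psmb2 without any of 10 of the 13 single libraries. Psme1 (0.26, adjusted p = 0.319) and Psme2 (-0.01, adjusted p = 0.992) were not called.

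The 4 members lower in the thymic stages were Psmb11, Psmd11, Psmb3 and Psmf1. Psmb11 encodes the catalytic subunit known from the thymoproteasome of cortical thymic epithelium. It had 0.00319 to 0.989 FPKM in the thymic libraries of the set, against 1.27, 10.2, 12.2 and 11.1 FPKM in DN1eP (-2.64 ± 0.40, adjusted p = 0.000356), and at most 1.37 FPKM in any library of the DN1eP-NKT set. Outside DN1eP only NKT-2 library 4 reached 1 FPKM. Psmb11 could thus be tested only through the group where it was high, and its call adds little to the values. In all, 3 of the 4 DN1eP libraries stood clear of all others and library 1 did not. Other epithelial markers were near 0 in DN1eP: Foxn1 and Krt5 were listed at 0 in all 26 libraries, Prss16 was listed at 0 in all 4 DN1eP libraries, Epcam was at 0.184 to 0.829 FPKM and Krt8 was listed at 0 in 3 of the 4. Cortical thymocyte markers summed to 2.57 to 31.1 FPKM in the thymic libraries of the set, against 8.01, 25.5, 27.1 and 24.9 FPKM in DN1eP. Among the DN1eP libraries their sum was thus lowest in library 1, as Psmb11 was. This did not hold for each marker: Cd8a had 2.75, 1.57, 4.42 and 2.3 FPKM in DN1eP, and Rag1 was highest in library 1, at 0.625 FPKM. Of the 7 cortical thymocyte genes, 5 could be tested and 2 were lower in the thymic stages (Cd8a at -1.11 ± 0.30, adjusted p = 0.013, and Ptcra at -0.92 ± 0.32, adjusted p = 0.0445). Dntt, which encodes the terminal transferase of receptor gene rearrangement, had at most 15.8 FPKM in the thymic libraries, against 0.626, 8.78, 12.6 and 11 FPKM in DN1eP (adjusted p = 0.0889), while Rag1 was listed at 0 in DN1eP libraries 2 to 4. In NKT-3 library 5, which had the highest sum and the highest Dntt, Psmb11 was at 0.0152 FPKM. The part of these cells in the Psmb11 values was not tested. Psmd11, a scaffold subunit of the 19S lid, had 29.8 to 156 FPKM in the thymic stages, against 101, 169, 219 and 159 FPKM in DN1eP (-0.99 ± 0.27, adjusted p = 0.0127). It was at 29.8 to 64.4 FPKM in the libraries topped by Mir682 and at 82.4 to 156 FPKM in the other thymic libraries. Psmb3 (-0.70 ± 0.23, adjusted p = 0.0354) and Psmf1 (-0.56 ± 0.15, adjusted p = 0.0129) were lower by less, and Psmb3 lost the call without any of 9 single libraries. With a term for the libraries topped by Mir682, 22 members were higher and 1 was lower, against 11.6% and 11.5% of all genes, and Psme2 was then at 0.73 (adjusted p = 0.00643). Of all calls 39% were higher, against 50.3% after quantile normalization, when 19 members were higher and 5 were lower. DN1eP library 1 also differed in its deposited interval, with a half-width of 6.24% for genes of 20 to 100 FPKM, against 18.8% to 23.8% in libraries 2 to 4. Proliferation markers were higher in the thymic stages for 8 of 10 genes, with sums of 1111 to 1351 FPKM in NKT-1, 589 to 1052 FPKM in NKT-2 and 199 to 294 FPKM in NKT-3, against 246 to 442 FPKM in DN1eP. Myeloid markers summed to 0.405 to 66.5 FPKM in the thymic stages, against 35.5 to 379 FPKM in DN1eP. Mpo gave most of each DN1eP sum, with 271, 28.8, 26.6 and 18 FPKM. The highest Mpo value among the thymic libraries of the set was 1.78 FPKM. Lyz2 differed from Mpo, reaching no more than 2.15 FPKM in any DN1eP library. NKT-2 library 6, NKT-3 library 5 and NKT-1 library 3 had 60.4, 25.3 and 8.78 FPKM of Lyz2. The remaining thymic libraries of the set had 1.54 FPKM of it or less. The part of the proliferation and myeloid markers in the proteasome values was not tested.

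**Figure D4:**
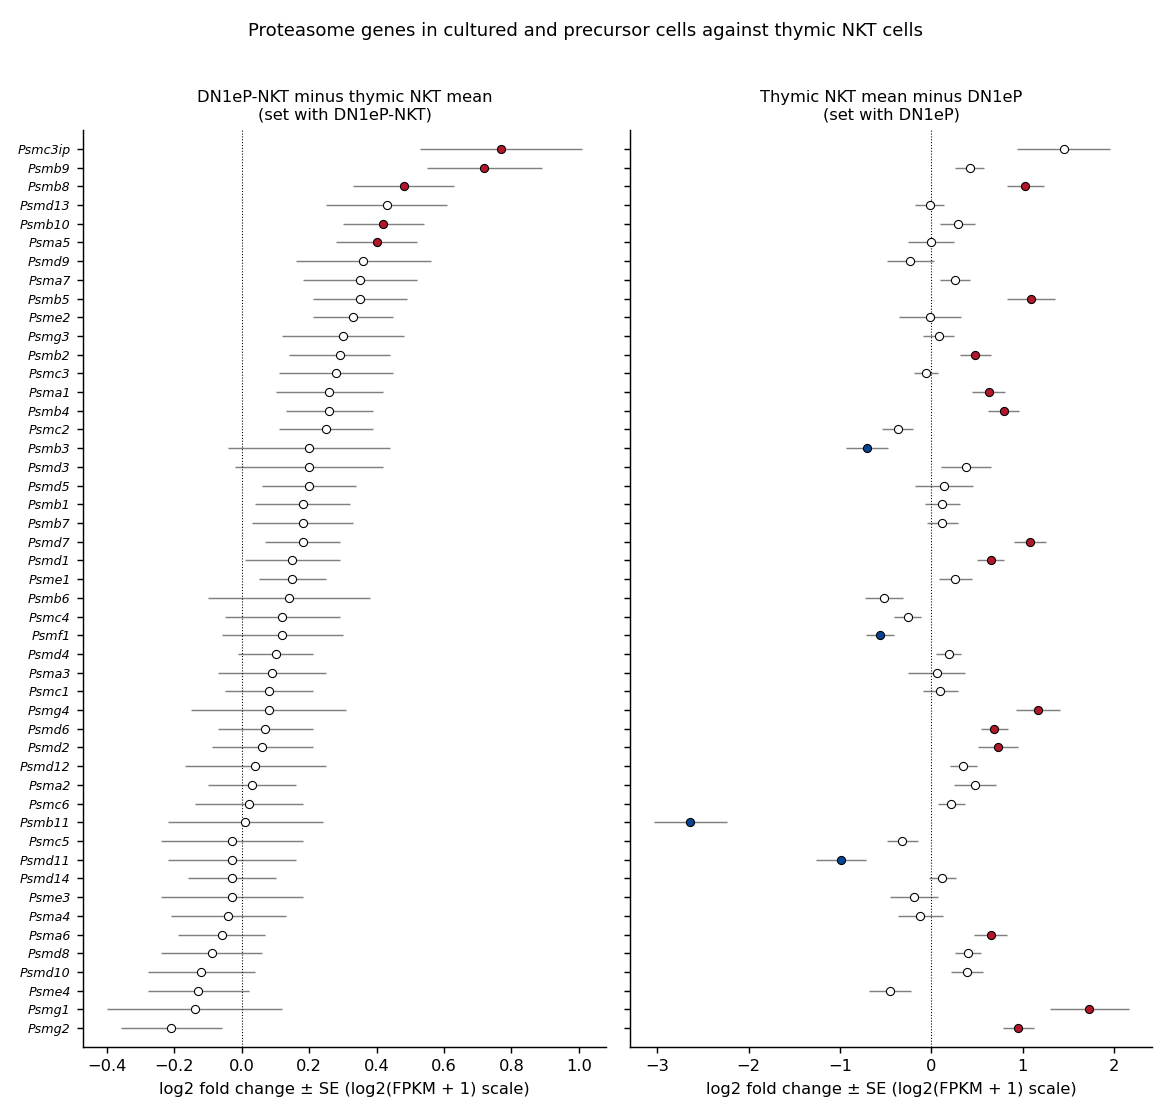
Log2 difference (± SE) of each member in DN1eP-NKT minus the mean of the thymic stages (DN1eP-NKT set) and in thymic NKT cells minus DN1eP (DN1eP set), the thymic stages taken as their mean. Red filled points passed the test as higher and blue filled points as lower. On one side Psmb8, Psmb9 and Psmb10 are red, and on the other Psmb8 and Psmb5 are among 13 red points and Psmb11 is the lowest point.

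DN1eP-NKT and DN1eP never share a set, so each was taken relative to the thymic stages of its own set in 1 fit over all libraries. This contrast is the sum of the 2 above and assumes that the sets differ alike in all groups, which cannot be checked here. In it, 17 members were higher in DN1eP-NKT and 2 were lower, against 15% of all genes higher and 16.6% lower (median 0.35, against -0.04). Psmb8 was 1.51 ± 0.25 (adjusted p = 7.44e-05), Psmb9 1.14 ± 0.24 (adjusted p = 0.000811) and Psmb10 0.71 ± 0.22 (adjusted p = 0.0159) higher on the log2 scale, and Psmb10 lost the call without DN1eP library 2 (adjusted p = 0.0604). Of the standard subunits only Psmb5 was called, at 1.44 ± 0.31 (adjusted p = 0.000912), while Psmb6 (-0.39 ± 0.34, adjusted p = 0.404) and Psmb7 (0.30 ± 0.23, adjusted p = 0.348) were not. Psmb11 (-2.63 ± 0.48, adjusted p = 0.000166) and Psmd11 (-1.02 ± 0.35, adjusted p = 0.028) were the lower members. With a term for the libraries topped by Mir682, 25 members were higher and 1 was lower. Calls over all genes, in either direction, were 3304 with that term, against 3691 without it. Here too Psmb11 could be tested only through DN1eP, the group where it was high. Psmd7 (1.27 ± 0.21, adjusted p = 4.4e-05) and Psmb4 (1.05 ± 0.21, adjusted p = 0.000517) were higher, and Psme1 (0.41, adjusted p = 0.139) and Psme2 (0.33, adjusted p = 0.549) were not called.

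Genes that act with the proteasome were read from lists. Of 18 measured genes for ubiquitin activation and proteasome-bound or shuttle factors, 4 were lower in NKT-3 than in NKT-2 in the DN1eP-NKT set and none was higher, a share near the 16.4% of all genes that were lower. The median log2 difference of the 18 was -0.29, against -0.03 for all genes. The lowest adjusted p belonged to Vcp (-0.92 ± 0.12, adjusted p = 4.38e-05), an ATPase that extracts ubiquitylated proteins, and Txnl1 (-0.96 ± 0.21, adjusted p = 0.00309), a thioredoxin bound to the cap. The others were Uchl5, a deubiquitinase of the cap, and Pomp, which helps the core to mature. Pomp had 195, 191 and 238 FPKM in NKT-3, against 257, 365, 326 and 414 FPKM in NKT-2 (-0.69 ± 0.20, adjusted p = 0.019). Of the same 18, only Uchl5 was called in the DN1eP set; it was lower (-0.96 ± 0.20, adjusted p = 0.0082), where 4.75% of all genes were. Of 5 proteasome gene regulators, among them Nfe2l1 and Nfe2l2, none passed limma's test between NKT-3 and NKT-2 in either set. In DN1eP-NKT, Nfe2l2 (0.72 ± 0.14, adjusted p = 0.00129) and its partner Mafg (0.71 ± 0.22, adjusted p = 0.0273) were higher than in the thymic stages, and none of the 18 was called. Of the 2 measured ubiquitin genes, Rps27a was lower in the thymic stages than in DN1eP (-1.24 ± 0.41, adjusted p = 0.0372), and neither was called between stages or in DN1eP-NKT against the thymic stages. Rps27a was at 428 to 457 FPKM in the 4 libraries topped by Mir682. It was at 1445 to 1755 FPKM in the other thymic libraries of the DN1eP set, against 1227, 3020, 2611 and 2165 FPKM in DN1eP.

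The interferon gamma and class I lists held genes called in both directions in NKT-3 against NKT-2 in the DN1eP-NKT set, where none of Psmb8, Psmb9 and Psmb10 was called. There, 4 of 10 interferon gamma genes were higher and 1 was lower, against 11.6% and 16.4% of all genes, and the list's median log2 difference was 0.43. Ifng, the cytokine, had 117, 157 and 197 FPKM in NKT-3, against 37.4, 5.05, 1.8 and 8.01 FPKM in NKT-2. Ifngr1, its ligand-binding receptor chain, rose by 3.61 ± 0.18 (adjusted p = 3.53e-09), and Ifngr2, the signalling chain, fell by 2.61 ± 0.31 (adjusted p = 1.56e-05). Ifngr1 alone of the 10 was called in the DN1eP set, as higher (2.63 ± 0.29, adjusted p = 4.8e-05). Of 10 class I antigen processing genes, 2 were higher in NKT-3 (Tapbpl, a peptide editor, at 0.70 ± 0.13, adjusted p = 0.000971, and Nlrc5, a class I transactivator, at 1.05 ± 0.21, adjusted p = 0.00164) and 1 was lower (Erap1, at -0.56 ± 0.17, adjusted p = 0.0249), with a list median of -0.17. Nlrc5 alone of the 10 was called in the DN1eP set (1.07 ± 0.30, adjusted p = 0.0437).

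In DN1eP-NKT against the thymic stages, Tap1, which encodes a chain of the peptide transporter and lies beside Psmb9 in the MHC, had 122, 148, 146 and 149 FPKM, against 68.5 to 96.8 FPKM in the thymic libraries. These do not overlap (0.75 ± 0.11, adjusted p = 9.29e-05). Nlrc5 was also higher (1.33 ± 0.17, adjusted p = 2.31e-05), and no class I gene was lower, where 15.9% of all genes were higher and 11.5% were lower. Of the interferon gamma list, Ifng (2.96 ± 0.55, adjusted p = 0.00219) and Ifngr1 (2.14 ± 0.14, adjusted p = 3.54e-08) were higher and Jak1 was lower. In the thymic stages against DN1eP, Tap1 (0.63 ± 0.17, adjusted p = 0.0129), Tap2 (1.77 ± 0.28, adjusted p = 0.000491) and Tapbp (0.40 ± 0.14, adjusted p = 0.0436) were higher and Tapbpl was lower, while 4 of the 10 interferon gamma genes were lower and none was higher, against 17.4% of all genes lower and 11.1% higher.

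The level of some members depended on the library set more than on the stage. Over the thymic libraries, 7 members were higher and 28 lower in the DN1eP-NKT set than in the DN1eP set (72.9% called, median log2 difference -0.44), where 72.5% of all genes were called with a median of 0.50. Psmd3, a lid subunit (mm9 chr11:98543868-98557292), was at 43 to 161 FPKM in the 9 thymic libraries of the DN1eP-NKT set and at 0.514 to 3.87 FPKM in the 9 of the DN1eP set (4.86 ± 0.19, adjusted p = 4.61e-17). Psme3, Psme4 and Psmb4 were higher by 2.70, 2.02 and 1.70, and Psma7, Psme2 and Psmb10 were lower by 1.36, 0.93 and 0.77. Psmb8 (-0.03, adjusted p = 0.841) and Psmb7 (0.08, adjusted p = 0.572) were near 0. How reads shared with near-identical copies, such as pseudogenes, were assigned is not stated by the labels, so levels of single members carry that uncertainty. Set and library kit cannot be told apart here, and levels across sets were not used to compare groups.

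**Figure D5:**
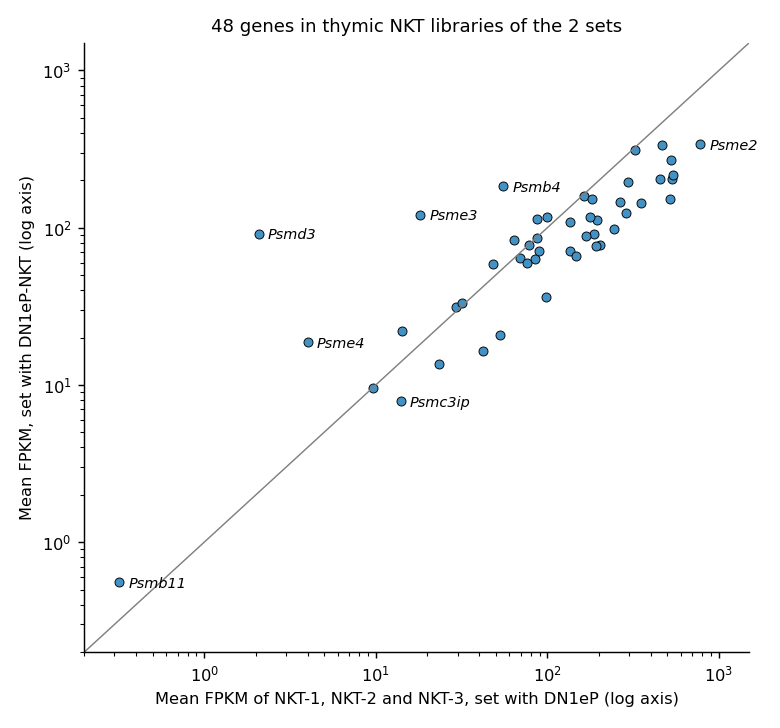
Mean FPKM of 48 members over NKT-1, NKT-2 and NKT-3 in the DN1eP set (x, log axis) and in the DN1eP-NKT set (y, log axis). Each point is 1 gene and the line marks equal levels. Psmd3, Psme3, Psme4 and Psmb4 lie far above the line, and most other members lie below it.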

How the data were processed

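Total RNA of 26 libraries had been sequenced, and the authors deposited 1 Cufflinks table of FPKM per library with the interval of each estimate. Per the submitters' processing notes, TopHat2 2.0.6 and Cufflinks 2.1.1 were used, and per the labels' build the coordinates are mm9. Only FPKM and its interval are given, so sequencing depth is unknown and no counts were tested. Of the symbols, 86 were missing from a library's table and 13 had a failed or skipped estimate in some library. After these were left out 23168 remained, and no 2 libraries were identical.

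The 11663 genes that reached 1 FPKM in 4 or more libraries were analysed as log2(FPKM + 1) with limma 3.58.1 in R 4.3.3 (trended, robust empirical Bayes, Benjamini-Hochberg at 0.05 over all tested genes). Each library set was fitted by itself, without a replicate block, and the contrast of DN1eP-NKT with DN1eP came from 1 fit over both sets. The steps were tested on simulated data. Subunit pair ratios were compared by exact two-sided permutation tests. Figures and tables used Python 3.11.15, numpy 2.4.6, pandas 2.3.3 and matplotlib 3.10.9.

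The members, gene lists and tests were chosen with earlier results of these data known. Named in every comparison were Psmb5 to Psmb10, Psme1 and Psme2, with up to 3 called members of each other role and up to 2 called genes of each pathway list, those with the lowest adjusted p. Other genes are named only to complete a count or beside a result, after their values were seen. Alternatives were other pseudocounts, filters, scalings, weights, a replicate block, a fit over all libraries and leaving out libraries. Terms for the Mir682 libraries and for interval width, and the pair ratios, were added after the data were seen. Results for some searched promoter patterns are not reported here.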

Additional observations from a re-analysis of the deposited data

Results flagged for a closer look

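In groups of 4 libraries, single libraries stood apart from the rest in 5 of 111 tests of a gene or a subunit share within a group, where chance flags about 1 in 20. Psma5 was at 143 FPKM in DN1eP library 4, against 189 to 196 FPKM in the other 3 DN1eP libraries. Psmd14 was at 114 FPKM in the same library, against 153 to 160 FPKM in the others. Psmb10 was at 125 FPKM in DN1eP-NKT library 1, against 156 to 161 FPKM in the other 3. Psmg2 was at 37.7 FPKM in DN1eP-NKT library 2, against 27.4 to 27.9 FPKM in the others. Psmg4 was at 33 FPKM in NKT-2 library 3, against 38.4 to 38.9 FPKM in the other NKT-2 libraries of the DN1eP-NKT set. None of 144 tests of a stage difference between the 2 library sets passed at an adjusted p under 0.05.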

How the results depend on the processing

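No member was called between NKT-2 and NKT-1 under any setting. For NKT-3 against NKT-2 in the DN1eP set, the 7 calls became 4 with no filter, 3 with upper-quartile scaling, 17 with array weights, 4 when NKT-3 library 5 and NKT-2 library 6 were left out, 18 with the Mir682 term and 0 without the 4 Mir682 libraries. Leaving out 1 library gave 2 to 10. For NKT-3 against NKT-1 in that set, the 31 became 16 with upper-quartile scaling, 17 with quantile normalization, 13 with the Mir682 term and 2 without those libraries, and 18 to 31 leaving out 1 library. In the DN1eP-NKT set the 26 (against NKT-2) and 22 (against NKT-1) each became 39 with the width term, and 17 to 26 and 10 to 20 leaving out 1 library. For DN1eP-NKT against the thymic stages, the 5 became 3 with no filter, 13 with array weights, 12 with the width term and 1 in a fit over all libraries, and 1 to 15 leaving out 1 library. The 17 of the thymic stages against DN1eP became 12 to 22, and the 19 of DN1eP-NKT relative to DN1eP became 14 to 20 leaving out 1 library and 10 with no filter. Psme2 in the thymic stages against DN1eP was -0.01 and became 0.73 with the Mir682 term and 0.73 without those libraries. Apart from leaving out a library, named genes and subunit pair ratios stayed on their side of the threshold in 1454 comparisons with the main result. They lost the call in 151, gained it in 43 and reversed direction with a call in 2. Direction was not followed where a gene was called in neither fit. Pair ratios were judged here at an unadjusted exact permutation p under 0.05. The causes were not tested.

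Replicate numbers were not taken to pair the samples, since the labels tie no number to a shared source and not every same-numbered pair of libraries had deviations correlated above 0.1. In the DN1eP-NKT set 7 of 16 pairs did (-0.11 to 0.48), the highest (0.43 to 0.48) among the libraries numbered 1 of the cultured cells and the earlier thymic stages. In the DN1eP set 0 of 8 pairs did (-0.35 to 0.02). With the number as a replicate block, the counts in the DN1eP-NKT set stayed at 26, 22, 5 and 0. In the DN1eP set they were 1 (NKT-3 against NKT-2), 6 (NKT-3 against NKT-1), 0 (NKT-2 against NKT-1) and 7 (thymic stages against DN1eP), and 15 for DN1eP-NKT relative to DN1eP. Calls over all genes fell as well in these fits, to 479 (against 830), 1023 (against 2155), 4 (against 15), 1306 (against 3322) and 2287 (against 3691) in the same order. The Psmb10 to Psmb7 ratio could not reach a p under 0.0714 in the exact permutation test once an NKT-3 library was left out. The deposited half-width of 5.53% to 23.8% for genes of 20 to 100 FPKM limits how small a difference between 2 libraries can be read.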
